A study of Mus musculus with 3 samples.

Results

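The collagen genes were followed across male gonads of mouse embryos with 3 genotypes. Members were the probes, control spots left out, whose accession matched a mouse RefSeq gene with a symbol of the form Col, a number, a and a number. This gave 63 probes for 38 genes among 16531 named genes on the array. Another 6 of the 44 collagen symbols in the gene table had no matching probe and were not analysed here: Col6a3, Col6a4, Col6a5, Col12a1, Col20a1 and Col22a1. Each gene was read from its probe with the highest mean signal over the 6 arrays.

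RNA came from whole gonads at embryonic day 14.5, dissected from a mouse line named MCH. The groups were wild type (Cyp26b1+/+/Stra8+/+), Cyp26b1 knockout (Cyp26b1-/-/Stra8+/+) and double knockout (Cyp26b1-/-/Stra8-/-), with 2 biological duplicates each hybridised to one-colour Agilent arrays. Both knockout groups shared the loss of Cyp26b1. The labels do not state how many embryos went into an array or which cells and exons the deletions affect.

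Collagens are trimeric proteins that give tissues their scaffold. Fibrillar collagens (types I, II, III, V, XI and others) build fibrils, and the fibril-associated collagens with interrupted helices (FACIT, including type IX) coat them. Type IV collagen forms the network of basement membranes, including the one that surrounds the seminiferous cords of the fetal testis, and the multiplexins anchor there. The enzyme made from Cyp26b1 breaks down retinoic acid in the fetal testis, and Stra8 is a retinoic acid-responsive gene of germ cells.

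Tests covered genes with well-above-background marks on each array of 1 or more genotypes, and a gene was called if its limma p-value, adjusted over all 21554 features, was below 0.05. Of the 38 genes, 34 were tested. Col6a6, Col10a1, Col19a1 and Col28a1 had such marks on both arrays of no genotype and are not described further. Signals are given as log2 relative to the 75th percentile of their array, so 0 is the level of that percentile. Differences are given on the same log2 scale with the standard error (SE) of the fit and n = 2 arrays per genotype.

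Arrays of one genotype correlated with an r between 0.9944 and 0.9962, and their log2 differences had SDs from 0.243 to 0.298. Each genotype lay on a slide of its own, so slide and genotype cannot be told apart. The wild-type and double knockout slides were scanned on one day and the Cyp26b1 knockout slide on another, so both comparisons with Cyp26b1 knockout also set 2 scan days against each other. The single Cyp26b1 probe did not mark the deletion: it differed from wild type by 0.12 in the arrays labelled Cyp26b1 knockout (adjusted p = 0.552) and by 0.08 in those labelled double knockout (adjusted p = 0.771). Stra8 was higher than wild type by 4.04 and by 2.98 in the same arrays. The labels do not place these probes inside or outside the deletions, so they check no label, and genotype names below are those of the labels.

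Among the 34 collagen genes tested, 10 rose and 10 fell in arrays labelled Cyp26b1 knockout against wild type. That is 58.8% of them, beside 51.2% of all features tested. The same comparison called 21.3% of all features higher and 29.9% lower. In double knockout against wild type 3 collagen genes rose (Col9a1, Col9a2 and Col27a1), or 8.82% beside 12.0% of all features. The background there was 5.43% higher and 6.56% lower. No collagen gene fell in that comparison by the limma fit at the adjusted threshold. At the looser threshold of an unadjusted p below 0.05 there were 7 higher and 3 lower. The share of all features at that looser threshold is not given here, so these counts have no background to be read against. Between the knockouts (double against Cyp26b1 knockout) 8 rose and 8 fell, or 47.1% beside 43.1% of all features, of which 25.5% were higher and 17.6% lower. The comparisons share arrays, so their counts do not stand for separate evidence.

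The median log2 difference of the 34 genes was 0.09, 0.03 and 0.04 in these 3 comparisons, beside -0.09, -0.02 and 0.09 over all features. The authors' deposited value table was scaled between genotypes in another way. With that scaling the median of all features in double knockout was -0.22 against wild type and -0.21 against Cyp26b1 knockout. Collagen calls were then 2 higher and 6 lower in double knockout against wild type, and 1 higher and 15 lower in double knockout against Cyp26b1 knockout. In Cyp26b1 knockout against wild type that scaling gave 10 higher and 9 lower. Of the 8 genes that rose between the knockouts, only Col4a5 was still called higher with it.

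**Figure D1:**
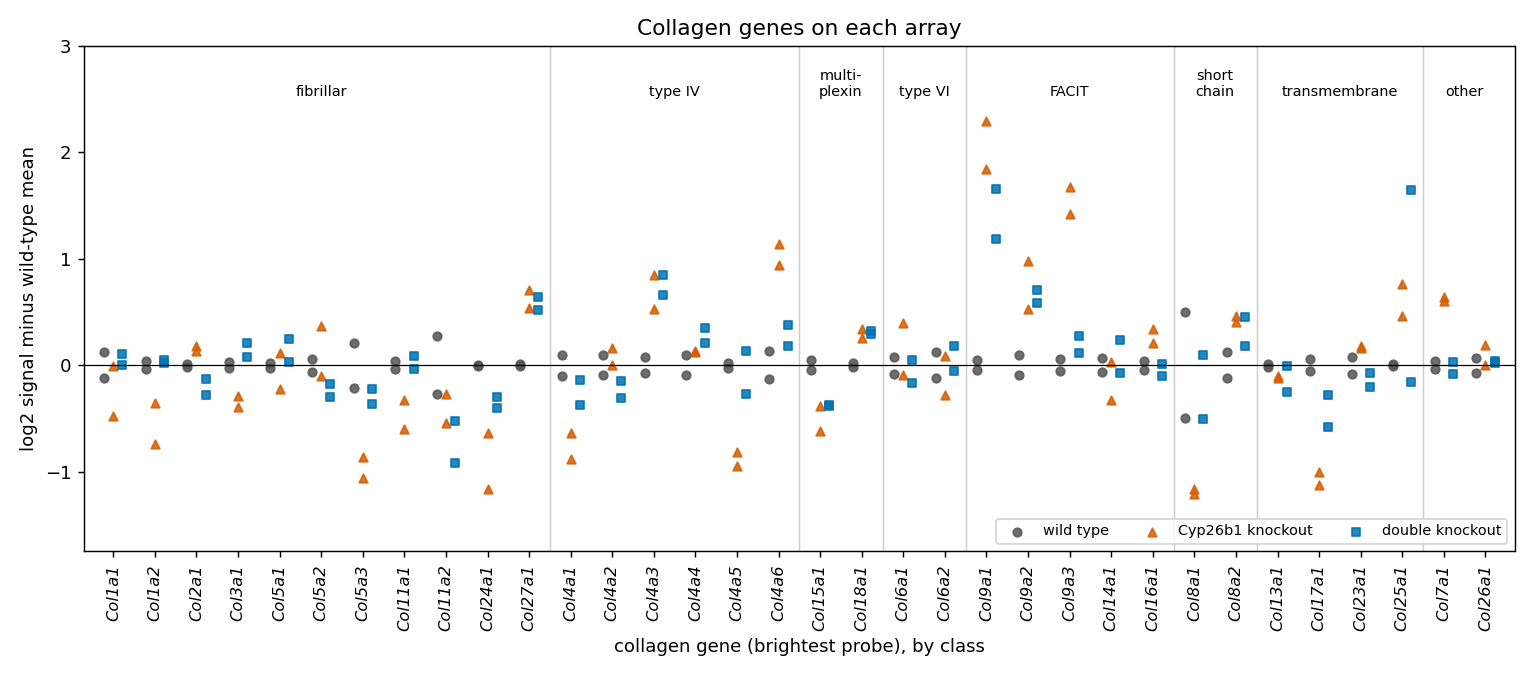
Log2 signal of each tested collagen gene on every array, minus the wild-type mean of that gene, with genes ordered by class along the x axis. Each symbol is 1 array, with circles for wild type, triangles for Cyp26b1 knockout and squares for double knockout; the Cyp26b1 knockout arrays of Col9a1 lie farthest above 0, while the Cyp26b1 knockout arrays of Col8a1, Col24a1 and Col17a1 lie below -0.5.

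Type IX collagen, the FACIT that decorates type II fibrils, is a trimer of the products of Col9a1, Col9a2 and Col9a3. RNA of all 3 genes was higher in Cyp26b1 knockout than in wild type, by 0.76 to 2.07. Col9a1 and Col9a3 had the largest rises of the 34 genes tested. In double knockout Col9a1 and Col9a2 were also above wild type, and Col9a3 was not called. Of the 5 FACIT genes tested, 4 rose and 0 fell in Cyp26b1 knockout against wild type (median 0.76). In double knockout 2 rose against wild type (median 0.20), and 3 fell against Cyp26b1 knockout (median -0.32). Over all features 51.2%, 12.0% and 43.1% were called in these 3 comparisons, with medians of -0.09, -0.02 and 0.09.

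Promoters of Col9a1 and Col9a2 are shown because the type IX genes rose in Cyp26b1 knockout, and Col9a3 is named only. They are RefSeq sequences on build GRCm38.p6, each with the 250 bases that end just before an annotated transcript start, 5′ to 3′ on the gene's strand. Capitals mark matches, on either strand, to 6 short motifs: AGGTCA (one arm of a retinoic acid response element, read as TGACCT on the other strand), the GC box GGGCGG, the CCAAT box, the TATA box TATAAA, and for SOX factors ACAAAG besides the variant ACAATG. No motif overlaps another in these windows.
Col9a1, first start, chr1:24177360-24177609, plus strand: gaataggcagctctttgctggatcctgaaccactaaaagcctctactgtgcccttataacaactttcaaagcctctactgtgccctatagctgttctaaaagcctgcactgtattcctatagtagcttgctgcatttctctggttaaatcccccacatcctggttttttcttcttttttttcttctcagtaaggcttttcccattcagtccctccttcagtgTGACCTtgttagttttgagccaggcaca
Col9a1, second start, chr1:24194953-24195202, plus strand: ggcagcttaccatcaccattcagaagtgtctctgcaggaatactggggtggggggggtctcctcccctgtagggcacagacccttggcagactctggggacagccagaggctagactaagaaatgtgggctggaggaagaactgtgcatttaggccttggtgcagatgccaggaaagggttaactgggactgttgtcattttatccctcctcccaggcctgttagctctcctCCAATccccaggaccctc
Col9a2, chr4:121039316-121039565, plus strand: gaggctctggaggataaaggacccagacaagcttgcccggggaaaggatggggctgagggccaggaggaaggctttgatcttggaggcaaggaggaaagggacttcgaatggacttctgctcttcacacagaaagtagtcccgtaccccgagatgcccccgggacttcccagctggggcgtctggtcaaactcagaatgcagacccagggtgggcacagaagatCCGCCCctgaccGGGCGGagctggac
The first Col9a1 window held 1 AGGTCA match, as TGACCT, beginning at -28 relative to the start. The second Col9a1 window and the Col9a2 window held none. AGGTCA occurs in 14.0% of 32851 RefSeq promoter windows of the same length. Among the other collagen genes on the array, it lay in the window of Col7a1, which rose in Cyp26b1 knockout against wild type. It also lay in those of Col11a1 and Col24a1, which fell, and of Col4a4 and Col23a1, which were not called in that comparison. The second Col9a1 window held 1 CCAAT, which 33.8% of windows hold, and the Col9a2 window held 2 GGGCGG matches, which 32.7% hold. A match is a string of letters, and binding was not measured.

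Col9a1 measured -4.07 and -3.97 (wild type), -1.73 and -2.18 (Cyp26b1 knockout) and -2.84 and -2.37 (double knockout). Both wild-type arrays lay below all 4 others, and the knockout groups did not overlap each other. Col9a1 was 4.18-fold higher in Cyp26b1 knockout than in wild type (log2 difference 2.07 ± 0.22 SE, adjusted p = 0.000401) and 2.67-fold higher in double knockout (1.42 ± 0.22, adjusted p = 0.00893). Over the settings tried these log2 differences ran from 1.44 to 2.29 and from 0.98 to 1.65. Without one or the other wild-type array the second call was lost, with adjusted p values of 0.0663 and 0.0631. Against Cyp26b1 knockout, double knockout was lower by 0.65 ± 0.22 (adjusted p = 0.0483). This last call was lost without wild-type replicate 1 or 2, Cyp26b1 knockout replicate 1 or double knockout replicate 1, where the adjusted p reached 0.223. It was also lost with quantile normalization (adjusted p = 0.0901) and with cyclic loess (adjusted p = 0.117).

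Col9a3 separated the knockouts from each other. It measured 1.61 and 1.50 (wild type), 3.23 and 2.98 (Cyp26b1 knockout) and 1.83 and 1.67 (double knockout). The Cyp26b1 knockout arrays stood above all others, and the double knockout arrays lay just above the wild-type arrays without overlap. Cyp26b1 knockout was 2.92-fold above wild type (log2 difference 1.55 ± 0.11, adjusted p = 0.00013), and double knockout was below Cyp26b1 knockout by 2.55-fold (-1.35 ± 0.11, adjusted p = 0.000458). Double knockout against wild type gave 0.20 ± 0.11 (adjusted p = 0.279). Both calls of Col9a3 were kept under every setting tried. Each type IX gene had 1 probe, so the mean of all probes drew on no further probe and could not test these calls.

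Col9a2 measured 1.85 and 1.67 (wild type), 2.74 and 2.29 (Cyp26b1 knockout) and 2.35 and 2.47 (double knockout). All 4 knockout arrays were above wild type, and the knockout groups overlapped. The rise was 0.76 ± 0.15 in Cyp26b1 knockout (adjusted p = 0.00492) and 0.65 ± 0.15 in double knockout (adjusted p = 0.0348), with -0.11 between the knockouts (adjusted p = 0.591). The rise in double knockout was lost without either wild-type array or either double knockout array (adjusted p up to 0.195), and with the authors' scaling (adjusted p = 0.0679). Col16a1, a FACIT of fibrils and of the zone beside basement membranes, rose by 0.28 in Cyp26b1 knockout (adjusted p = 0.0353) and was lower by 0.32 in double knockout against Cyp26b1 knockout (adjusted p = 0.0249). The first was lost without any array other than Cyp26b1 knockout replicate 1 (adjusted p up to 0.173) and turned to -0.11 when the mean of all probes of the gene was used (adjusted p = 0.323). The second was lost without Cyp26b1 knockout replicate 2 (adjusted p = 0.0873), double knockout replicate 1 (adjusted p = 0.0520) or 2 (adjusted p = 0.140). Col14a1, which binds type I fibrils, was not called in any comparison.

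Type II and type XI collagen are the fibrillar partners of type IX in cartilage. Col2a1 measured 0.35 and 0.32 (wild type), 0.51 and 0.47 (Cyp26b1 knockout) and 0.21 and 0.05 (double knockout). The 3 genotypes did not overlap, but only double knockout against Cyp26b1 knockout was called (-0.36 ± 0.09, adjusted p = 0.0186). That call was lost without Cyp26b1 knockout replicate 1 (adjusted p = 0.0648) or without double knockout replicate 2 (adjusted p = 0.102). Col11a1 fell by 0.46 in Cyp26b1 knockout against wild type, and Col11a2 differed by -0.41 (adjusted p = 0.170) and was not called.

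Of 8 cartilage markers on the array, 6 were well above background on all arrays, and Matn1 and Matn3, which encode cartilage matrilins, on none. The summed cartilage marker level, each marker taken as a multiple of its array's 75th percentile, was 1.24 to 1.34 in wild type, 0.899 to 0.981 in Cyp26b1 knockout and 0.806 to 0.859 in double knockout. Of the 6 cartilage markers tested, 1 rose in Cyp26b1 knockout (Cnmd, 0.87) and 3 fell (Ucma, -3.30, Matn4, -1.69, and Acan, -0.49), while Comp (-0.12) and Hapln1 (-0.13) were not called. Sertoli cell markers summed to 142.9 to 163.3 in wild type, 180.0 to 185.2 in Cyp26b1 knockout and 159.1 to 186.7 in double knockout. Most of that sum came from Cst9, which was not called in Cyp26b1 knockout (0.41, adjusted p = 0.0829). Of the 10 Sertoli cell markers 4 rose there (Dhh, Cldn11, Gata1 and Aard) and 2 fell (Amh and Ptgds). Over all features 21.3% were higher and 29.9% lower in Cyp26b1 knockout against wild type. The part of cartilage and Sertoli cell markers in the type IX differences was not tested. In RNA from whole gonads, fewer cells of a type and less RNA per cell cannot be told apart.

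**Figure D2:**
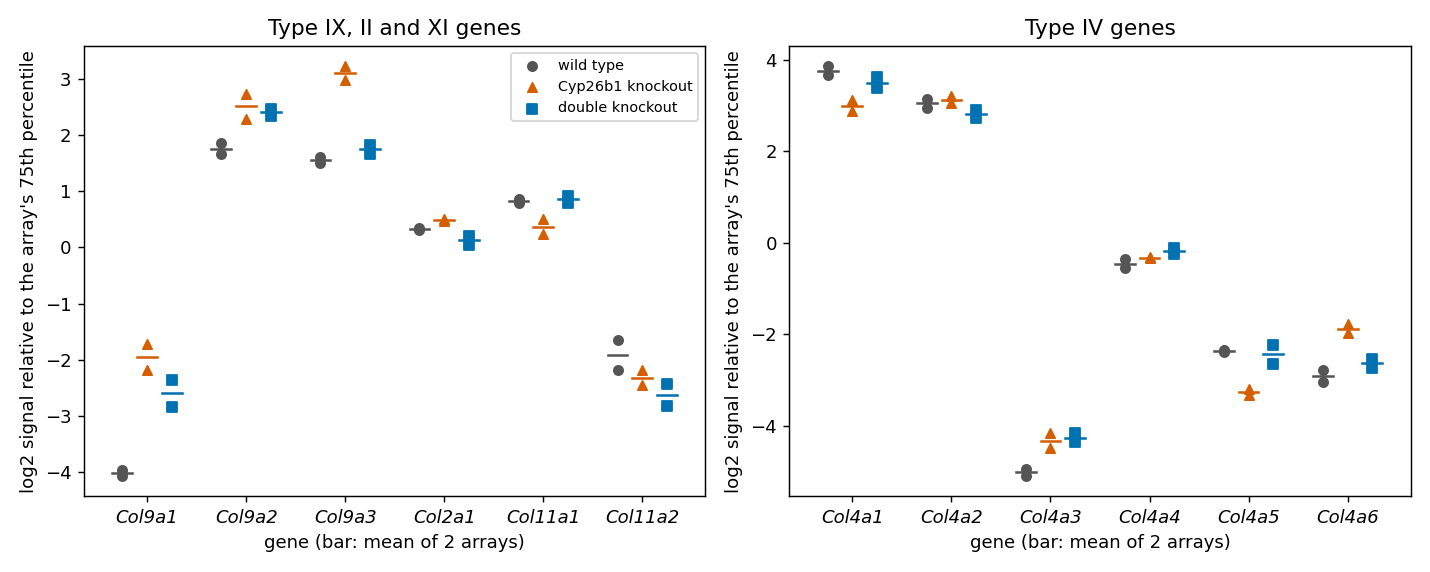
Log2 signal above or below the array's 75th percentile (y axis) for the type IX, II and XI genes (left) and the type IV genes (right) on all 6 arrays. Each symbol is 1 array and each bar the mean of the 2 arrays of a genotype; Col9a3 is highest in Cyp26b1 knockout, at 3.23 and 2.98, and Col4a5 and Col4a6 move in opposite directions in that genotype.

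Of the 11 fibrillar genes, in Cyp26b1 knockout 5 fell (Col1a2, Col3a1, Col5a3, Col11a1 and Col24a1), 1 rose (Col27a1) and 5 were not called, with a median of -0.34. Over all features 29.9% were lower and 21.3% higher in that comparison, with a median of -0.09. Double knockout against wild type gave 1 rise (Col27a1), beside 5.43% higher over all features, and the median was 0.03, beside -0.02. Between the knockouts 4 rose (Col1a2, Col3a1, Col5a3 and Col11a1) and 1 fell (Col2a1), beside 25.5% higher and 17.6% lower over all features. The fibrillar median there was 0.29, beside 0.09. These medians depended on the between-array scaling. With cyclic loess, which removes brightness-dependent shifts and was added after the data were seen, the fibrillar median was -0.14 in Cyp26b1 knockout against wild type and 0.02 between the knockouts.

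Types I and III make the main fibrils of the interstitium. Col1a2 measured 6.84 and 6.76 (wild type), 6.06 and 6.44 (Cyp26b1 knockout) and 6.82 and 6.85 (double knockout). The Cyp26b1 knockout arrays were the lowest, and double knockout overlapped wild type. The difference was -0.55 ± 0.14 in Cyp26b1 knockout (adjusted p = 0.0124), 0.04 in double knockout against wild type (adjusted p = 0.880) and 0.59 ± 0.14 between the knockouts (adjusted p = 0.0119). Neither call of Col1a2 held with quantile normalization (adjusted p of 0.0510 and 0.0607) or cyclic loess (adjusted p of 0.144 and 0.231). The fall against wild type was lost without wild-type replicate 1 (adjusted p = 0.0744), and the rise between the knockouts without double knockout replicate 1 (adjusted p = 0.0520) or 2 (adjusted p = 0.0596).

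Its partner chain gene Col1a1 measured 5.45 and 5.21 (wild type), 4.86 and 5.33 (Cyp26b1 knockout) and 5.33 and 5.44 (double knockout). The Cyp26b1 knockout arrays differed from each other, and one lay inside the wild-type range. Col1a1 was not called in any comparison (-0.24 ± 0.16 in Cyp26b1 knockout against wild type, adjusted p = 0.252). Without Cyp26b1 knockout replicate 2 it was called lower in that genotype, at -0.48 (adjusted p = 0.0261), and without Cyp26b1 knockout replicate 1 the difference was -0.0034. Between the knockouts the same replicate 2 left out gave 0.53 (adjusted p = 0.0236), beside 0.29 with it (adjusted p = 0.182).

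Col3a1, whose product forms type III collagen, measured 5.71 and 5.65 (wild type), 5.28 and 5.39 (Cyp26b1 knockout) and 5.89 and 5.75 (double knockout). The 3 genotypes did not overlap, with Cyp26b1 knockout lowest and double knockout highest. The difference was -0.34 ± 0.09 in Cyp26b1 knockout (adjusted p = 0.0178), 0.14 in double knockout against wild type (adjusted p = 0.350) and 0.49 ± 0.09 between the knockouts (adjusted p = 0.00576). The fall in Cyp26b1 knockout was lost without wild-type replicate 1 (adjusted p = 0.102) or 2 (adjusted p = 0.0669) and without Cyp26b1 knockout replicate 1 (adjusted p = 0.0560). It was also lost with quantile normalization, cyclic loess, the authors' scaling and the mean of all probes. The rise between the knockouts was lost with the authors' scaling (adjusted p = 0.152), cyclic loess (0.20, adjusted p = 0.116) and the mean of all probes (0.0079, adjusted p = 0.955).

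The minor fibrillar chains differed more. Col5a3, a type V chain, measured -1.17 and -0.74 (wild type), -2.02 and -1.82 (Cyp26b1 knockout) and -1.32 and -1.18 (double knockout). Cyp26b1 knockout lay below all other arrays, by 0.96 ± 0.16 against wild type (log2 difference -0.96, adjusted p = 0.00261) and with a rise of 0.67 in double knockout against it (adjusted p = 0.0152). The fall was kept under every setting, and the rise was lost without Cyp26b1 knockout replicate 1 (adjusted p = 0.0720) or without double knockout replicate 2 (adjusted p = 0.0679). Col5a1 and Col5a2, the chains of the common type V trimer, were not called in any comparison.

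Col24a1, a fibrillar gene of low signal here, measured -2.98 and -2.97 (wild type), -4.14 and -3.61 (Cyp26b1 knockout) and -3.28 and -3.38 (double knockout). The genotypes did not overlap. It fell by 0.90 in Cyp26b1 knockout (log2 difference -0.90 ± 0.21, adjusted p = 0.00947), a call lost without wild-type replicate 1 (adjusted p = 0.0519) or 2 (adjusted p = 0.0537). With the mean of its probes, of which the other was never above background, the difference was -0.47 (adjusted p = 0.299). Col11a1, a chain of type XI fibrils, measured 0.87 and 0.79 (wild type), 0.23 and 0.50 (Cyp26b1 knockout) and 0.80 and 0.92 (double knockout). Cyp26b1 knockout was lowest and double knockout overlapped wild type, with differences of -0.46 (adjusted p = 0.0118), 0.03 and 0.49 (adjusted p = 0.0120). The first was lost without wild-type replicate 1 (adjusted p = 0.0720) or Cyp26b1 knockout replicate 1 (adjusted p = 0.0506), and the last without double knockout replicate 2 (adjusted p = 0.0614).

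Col27a1, a fibrillar gene known from developing cartilage, went the other way. It measured 0.25 and 0.23 (wild type), 0.78 and 0.94 (Cyp26b1 knockout) and 0.88 and 0.75 (double knockout). Both wild-type arrays lay below all knockout arrays, and the knockouts overlapped. The rise was 0.62 ± 0.10 in Cyp26b1 knockout (adjusted p = 0.00178) and 0.58 ± 0.10 in double knockout (adjusted p = 0.0115), with -0.04 between the knockouts. The other Col27a1 probe gave 1.74, 0.39 and -1.34. With every probe as its own feature, its adjusted p was 0.110 in double knockout against wild type and 0.000536 between the knockouts. The rise in double knockout was lost without wild-type replicate 1 (adjusted p = 0.0756) or 2 (adjusted p = 0.0897) and without double knockout replicate 1 (adjusted p = 0.0550).

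Brightness and cell type markers are given beside the fibrillar genes. Of the 34 collagen genes, 13 lay in the brightest of 5 equal groups of the 18978 features that cleared background on all 6 arrays. The median over all features of that group was -0.15 in Cyp26b1 knockout against wild type, 0.05 in double knockout against wild type and 0.22 between the knockouts. Interstitial cell markers summed to 49.4 to 55.4 in wild type, 43.6 to 44.4 in Cyp26b1 knockout and 50.01 to 52.5 in double knockout, and 2 of 9 rose and 4 fell in Cyp26b1 knockout with a median of 0.01. Peritubular and smooth muscle markers summed to 45.6 to 50.7, 46.3 to 56.2 and 45.7 to 56.1. Of these 6, 3 rose in Cyp26b1 knockout (Des by 1.10, Myh11 by 0.95 and Actg2 by 0.54) and 0 fell. The same 3 fell between the knockouts. Acta2 and Tagln, the brightest of the 6, were not called. Fetal Leydig cell markers summed to 96.4 to 112.4 in wild type, 58.8 to 79.3 in Cyp26b1 knockout and 83.0 to 98.7 in double knockout, and 3 of 4 fell in Cyp26b1 knockout. Germ cell markers summed to 110.1 to 113.4, 63.3 to 77.0 and 87.4 to 97.8, and 1 of 7 rose and 4 fell in Cyp26b1 knockout. Over all features 21.3% were higher and 29.9% lower in Cyp26b1 knockout against wild type. The part of brightness and of these cell types in the fibrillar differences was not tested.

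**Figure D3:**
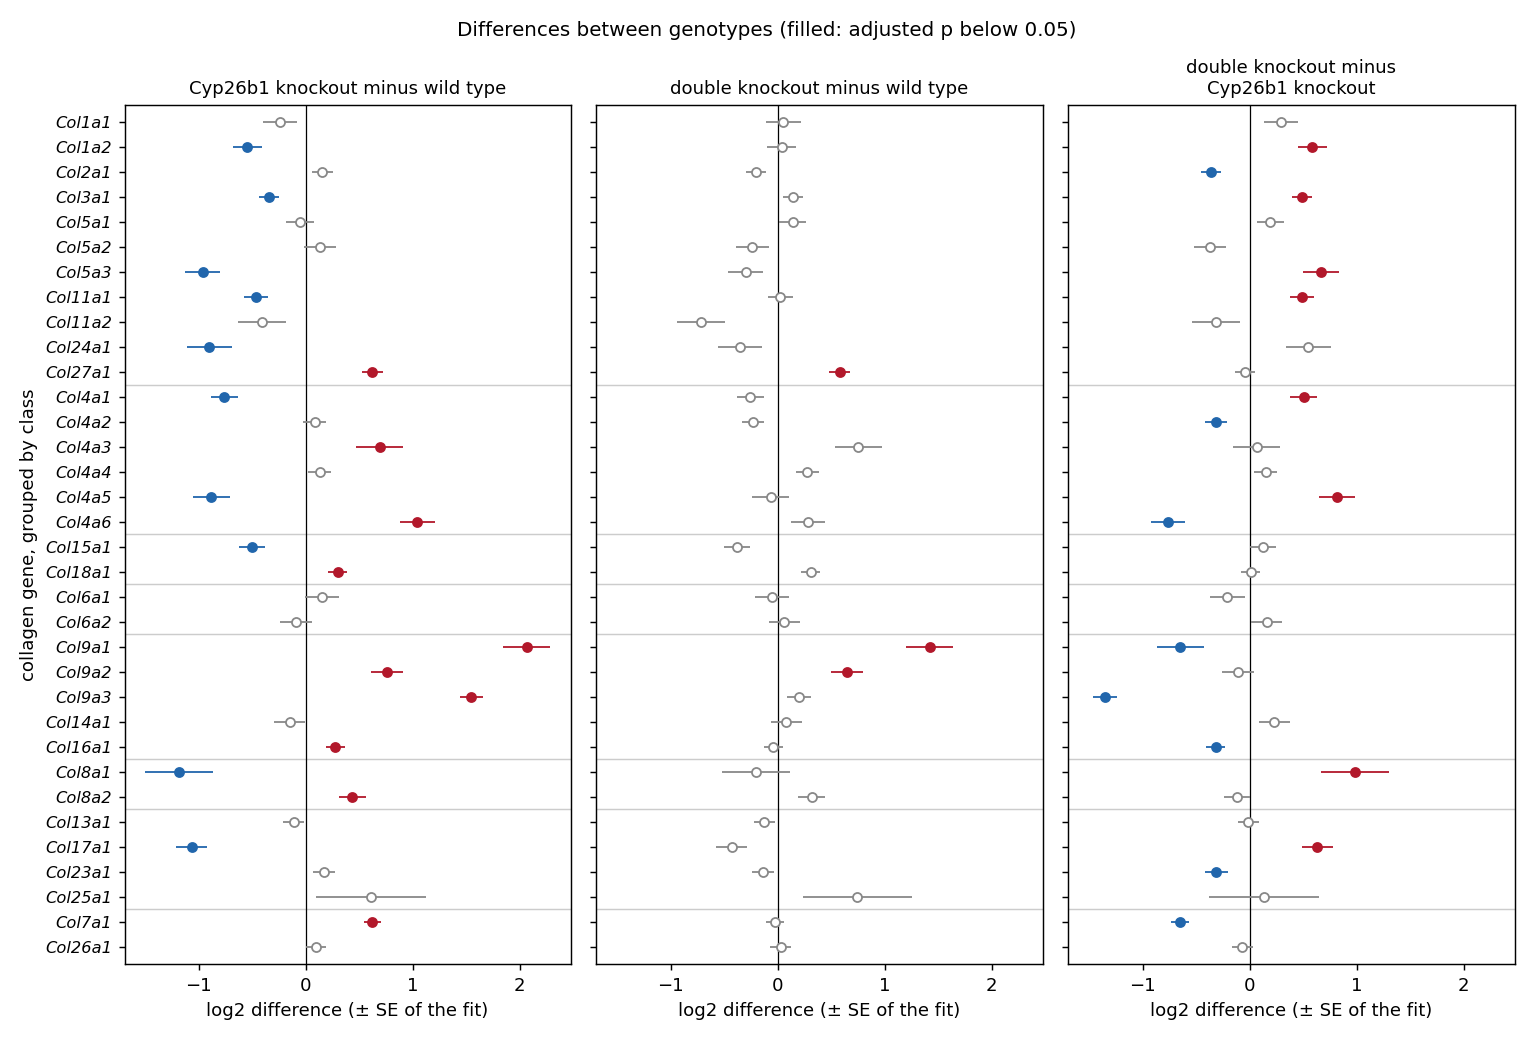
Log2 difference of each tested collagen gene (y axis, by class) in the 3 comparisons, with the SE of the limma fit as a horizontal bar. Filled points have an adjusted p below 0.05, red where higher and blue where lower; the middle panel, double knockout against wild type, holds 3 filled points, beside 20 in the left panel and 16 in the right.

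In the type IV network, genes of one pair differed from each other. The 6 genes form pairs that lie head to head on a chromosome: Col4a1 with Col4a2, Col4a3 with Col4a4, and Col4a5 with Col4a6. In Cyp26b1 knockout against wild type 2 rose (Col4a3 and Col4a6), 2 fell (Col4a1 and Col4a5) and 2 were not called. None of the 6 was called in double knockout against wild type. Between the knockouts Col4a1 and Col4a5 rose, and Col4a2 and Col4a6 fell. Over all features 51.2%, 12.0% and 43.1% were called in these comparisons.

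The Col4a5 and Col4a6 promoters are shown because the genes moved in opposite directions from starts 1343 bases apart. They come from the same RefSeq table and build, with the same 6 motifs in capitals.
Col4a5, chrX:141475169-141475418, plus strand: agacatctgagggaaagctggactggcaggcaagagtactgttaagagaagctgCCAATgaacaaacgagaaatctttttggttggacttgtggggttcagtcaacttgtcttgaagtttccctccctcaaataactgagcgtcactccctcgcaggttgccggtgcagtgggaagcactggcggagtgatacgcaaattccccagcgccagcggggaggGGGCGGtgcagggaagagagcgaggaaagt
Col4a6, chrX:141474077-141474326, minus strand: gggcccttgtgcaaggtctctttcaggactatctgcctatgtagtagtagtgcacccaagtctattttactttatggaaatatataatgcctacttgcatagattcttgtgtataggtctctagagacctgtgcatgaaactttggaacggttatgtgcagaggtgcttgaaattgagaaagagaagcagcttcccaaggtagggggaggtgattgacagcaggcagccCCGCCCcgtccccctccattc
The Col4a5 window held CCAAT at -196 and GGGCGG at -30 relative to the start. The Col4a6 window held 1 GGGCGG match, as CCGCCC, at -21, and neither held AGGTCA. The annotated starts of Col4a1 (minus strand) and Col4a2 (plus strand) lie 21 bases apart, and the transcripts overlap there, so no stretch lies between them.

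Col4a5, a chain of both the kidney-type and the smooth muscle-type network, measured -2.39 and -2.34 (wild type), -3.18 and -3.32 (Cyp26b1 knockout) and -2.63 and -2.23 (double knockout). The Cyp26b1 knockout arrays lay below all others, and double knockout overlapped wild type. The difference was -0.88 ± 0.17 in Cyp26b1 knockout (adjusted p = 0.00472), -0.07 in double knockout against wild type (adjusted p = 0.833) and 0.82 ± 0.17 between the knockouts (adjusted p = 0.00857).

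Col4a6, which pairs with type IV alpha 5 chains in the trimer, measured -2.78 and -3.04 (wild type), -1.77 and -1.97 (Cyp26b1 knockout) and -2.73 and -2.53 (double knockout). Here the Cyp26b1 knockout arrays lay above all others. The difference was 1.04 ± 0.16 in Cyp26b1 knockout (adjusted p = 0.00174), 0.28 in double knockout against wild type (adjusted p = 0.289) and -0.76 ± 0.16 between the knockouts (adjusted p = 0.00868). Its other probe gave 1.29, 0.10 and -1.19. The calls of Col4a5 and Col4a6 were kept under every setting tried. Col4a5 had 1 probe, so no further probe could test its calls.

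Col4a1 and Col4a2 encode the chains found in nearly all basement membranes. Col4a1 measured 3.85 and 3.66 (wild type), 2.87 and 3.11 (Cyp26b1 knockout) and 3.38 and 3.62 (double knockout). The 3 genotypes did not overlap, with Cyp26b1 knockout lowest. It fell by 0.76 in Cyp26b1 knockout (log2 difference -0.76 ± 0.13, adjusted p = 0.00235) and rose by 0.51 in double knockout against it (adjusted p = 0.0162). The rise was lost without Cyp26b1 knockout replicate 1 (adjusted p = 0.0759) or without double knockout replicate 2 (adjusted p = 0.0886), and with quantile normalization, cyclic loess, the authors' scaling and the mean of all probes. The other Col4a1 probe, which measured 2.84 and 2.69 in wild type and 2.55 and 2.74 in Cyp26b1 knockout, differed by -0.12 (adjusted p = 0.359 when every probe was its own feature).

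Col4a2 measured 3.14 and 2.95 (wild type), 3.04 and 3.21 (Cyp26b1 knockout) and 2.73 and 2.89 (double knockout). Cyp26b1 knockout overlapped wild type, and double knockout lay below both. Only the difference between the knockouts was called (-0.31 ± 0.11, adjusted p = 0.0478), and it was lost without any array other than Cyp26b1 knockout replicate 1 (adjusted p up to 0.215). The other Col4a2 probe gave 0.53 in Cyp26b1 knockout against wild type (adjusted p = 0.00487) and -0.86 between the knockouts (adjusted p = 0.00095).

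Col4a3 and Col4a4 encode chains of the kidney-type network. Col4a3 measured -4.93 and -5.08 (wild type), -4.48 and -4.16 (Cyp26b1 knockout) and -4.16 and -4.35 (double knockout). All knockout arrays lay above wild type. The rise in Cyp26b1 knockout was 0.69 ± 0.22 (adjusted p = 0.0335), while double knockout against wild type gave 0.75 ± 0.22 (adjusted p = 0.0678) and was not called. The call was lost without wild-type replicate 1 (adjusted p = 0.0874), wild-type replicate 2 (adjusted p = 0.149) or Cyp26b1 knockout replicate 2 (adjusted p = 0.141). Col4a4 was not called in any comparison.

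The multiplexins lie in basement membranes and carry fragments that act on vessels. Col18a1, the source of endostatin, rose by 0.30 ± 0.09 in Cyp26b1 knockout (adjusted p = 0.0242) from 5.81 and 5.77 in wild type to 6.13 and 6.04, without overlap. Double knockout, at 6.11 and 6.08, gave 0.31 (adjusted p = 0.0617). The call for Cyp26b1 knockout was lost without any array other than Cyp26b1 knockout replicate 2 (adjusted p up to 0.126). With every probe as its own feature, the other Col18a1 probe gave 0.68 in Cyp26b1 knockout against wild type (adjusted p = 0.00106). Between the knockouts that probe gave -0.32 (adjusted p = 0.032), beside 0.01 from the brightest. Col15a1 fell by 0.50 in Cyp26b1 knockout (log2 difference -0.50 ± 0.12, adjusted p = 0.0117), with double knockout at -0.38 (adjusted p = 0.0878). That call was lost without wild-type replicate 1 (adjusted p = 0.0782) or Cyp26b1 knockout replicate 1 (adjusted p = 0.0518).

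Endothelial markers, from cells that make type IV and type XVIII collagen, summed to 12.4 to 13.0 in wild type, 12.2 to 12.6 in Cyp26b1 knockout and 14.7 to 15.3 in double knockout. In Cyp26b1 knockout 5 of these 8 rose and 2 fell, beside 21.3% higher and 29.9% lower over all features. Markers of the mesonephros and its ducts summed to 12.1 to 13.5, 7.29 to 10.03 and 8.02 to 8.81. The part of either cell type in the basement membrane genes was not tested.

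Outside these classes the calls were scattered. Col7a1, which forms anchoring fibrils under epithelia, measured 1.24 and 1.31 (wild type), 1.88 and 1.92 (Cyp26b1 knockout) and 1.19 and 1.31 (double knockout). The Cyp26b1 knockout arrays stood above all others, and double knockout overlapped wild type. The rise was 0.62 ± 0.08 (adjusted p = 0.00096), and double knockout was lower than Cyp26b1 knockout by 0.65 (log2 difference -0.65, adjusted p = 0.00136). Both calls were kept under every setting tried, but Col7a1 had 1 probe, so no further probe could test them.

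Col17a1, a transmembrane collagen of hemidesmosomes, measured -1.49 and -1.60 (wild type), -2.67 and -2.55 (Cyp26b1 knockout) and -1.83 and -2.12 (double knockout). The genotypes did not overlap, with Cyp26b1 knockout lowest. The fall was 2.09-fold (log2 difference -1.06 ± 0.15, adjusted p = 0.00105), and double knockout was above Cyp26b1 knockout by 0.63 (adjusted p = 0.0119). The second call was lost without Cyp26b1 knockout replicate 1 (adjusted p = 0.0501) or without double knockout replicate 1 (adjusted p = 0.0638). Of the other transmembrane genes, Col23a1 was lower in double knockout than in Cyp26b1 knockout by 0.31 (adjusted p = 0.0476), a call lost without any 1 of the 6 arrays (adjusted p up to 0.195). Col13a1 and Col25a1 were not called by their brightest probes. The double knockout arrays of Col25a1 lay apart, at -3.12 and -4.92.

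Col8a1, a short-chain network gene, measured -0.63 and 0.36 (wild type), -1.30 and -1.34 (Cyp26b1 knockout) and -0.64 and -0.04 (double knockout). The Cyp26b1 knockout arrays were the lowest, and the wild-type arrays lay about as far apart as the effect itself. The difference was -1.19 ± 0.32 in Cyp26b1 knockout (adjusted p = 0.0171) and 0.98 ± 0.32 between the knockouts (adjusted p = 0.0405). Without wild-type replicate 2 the fall was -0.69 (adjusted p = 0.0729), and without Cyp26b1 knockout replicate 1 or 2 the adjusted p was 0.0645 or 0.0694. The rise between the knockouts was lost without Cyp26b1 knockout replicate 1 (adjusted p = 0.117) or 2 (adjusted p = 0.129) or without double knockout replicate 2 (adjusted p = 0.178).

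Col8a2, its partner in type VIII networks, rose by 0.44 in Cyp26b1 knockout (adjusted p = 0.0215). The call was lost without wild-type replicate 1 (adjusted p = 0.135) or either Cyp26b1 knockout array (adjusted p of 0.0841 and 0.0573). Col6a1 and Col6a2, chains of the beaded type VI filaments, and Col26a1 were not called in any comparison.

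Further probes of a gene did not always give the brightest probe's answer. Besides the brightest, 13 probes of 12 collagen genes were well above background on all arrays. Of the 20 genes called in Cyp26b1 knockout against wild type, 6 had such a probe, and its sign was the same for 5. Col3a1 was the exception, at 0.19 from its further probe beside -0.34. Between the knockouts the sign was the same for 4 of 6, with Col3a1 (-0.47 beside 0.49) and Col4a1 (-0.12 beside 0.51) as exceptions. The largest gap was that of Col13a1, whose further probe rose by 1.23 in Cyp26b1 knockout (adjusted p = 0.000593) beside -0.11 from the brightest. Between the knockouts it gave -1.78 (adjusted p = 0.00035) beside -0.01. For Col27a1 the further probe gave 1.74 in Cyp26b1 knockout and 0.39 in double knockout against wild type. Between the knockouts it gave -1.34 (adjusted p = 0.000536) beside -0.04. Neither gene was called there by its brightest probe, so both are outside the 4 of 6. For Col2a1 the further probe gave 0.94 in Cyp26b1 knockout (adjusted p = 0.00254) beside 0.16. In Cyp26b1 knockout 4 of the 13 further probes had the opposite sign, those of Col3a1 and Col13a1 and, with neither probe called, of Col1a1 (0.27 beside -0.24) and Col5a1 (0.08 beside -0.05).

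**Figure D4:**
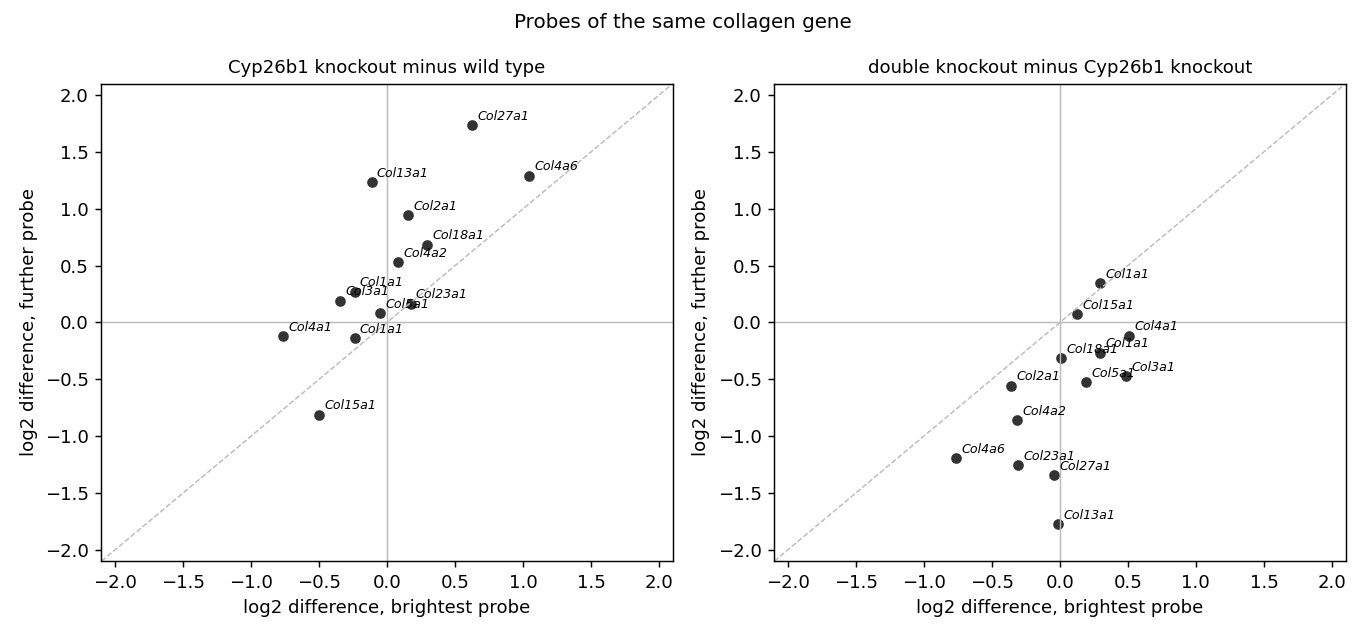
Log2 difference from a further probe (y axis) against that from the brightest probe (x axis) of the same collagen gene, for the 13 further probes well above background on all arrays. Each point is 1 probe and the dashed line marks equality; in Cyp26b1 knockout against wild type (left) 11 of 13 points lie above the line, and in double knockout against Cyp26b1 knockout (right) 1 of 13 does.

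The genes that make, bind and clear collagen were read from 5 lists. Of 92 listed genes, 74 were tested: 22 rose and 19 fell in Cyp26b1 knockout against wild type (55.4%), 8 rose and 4 fell in double knockout against wild type (16.2%), and 19 rose and 20 fell between the knockouts (52.7%). The shares over all features were 51.2%, 12.0% and 43.1%. With the authors' scaling the double knockout counts were 3 and 12 against wild type, and 10 and 29 between the knockouts.

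Among 26 genes of collagen synthesis and processing, 8 rose and 5 fell in Cyp26b1 knockout. P3h1, a prolyl 3-hydroxylase of fibrillar chains, rose by 1.50 (adjusted p = 9.29e-05), P4hb, a subunit of prolyl 4-hydroxylase, by 0.84 (adjusted p = 0.000266), and Plod1, a lysyl hydroxylase, by 1.07 (adjusted p = 0.00065). In double knockout these 3 were not called against wild type, and each fell against Cyp26b1 knockout. Colgalt1, which adds galactose to hydroxylysine, rose in double knockout by 0.40 (adjusted p = 0.0277), and Loxl2, a crosslinking oxidase, was lower there by 0.54 (adjusted p = 0.0265).

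Of 12 basement membrane partners, 3 rose and 3 fell in Cyp26b1 knockout. The laminin genes Lamb2 (0.87, adjusted p = 0.000839) and Lama4 (0.65, adjusted p = 0.0045) rose. Lama4 was also higher in double knockout against wild type (0.56, adjusted p = 0.0321). The laminin gene Lamb3, counted among the falls, was well above background on both wild-type arrays and on no knockout array, so its level there has only an upper bound and no difference is given. Of 17 fibril partners, 6 rose and 3 fell in Cyp26b1 knockout (52.9%, beside 51.2% of all features), with differences from -0.70 to 1.71. Those with the smallest adjusted p were Fbln1 (0.98), Thbs2 (1.59) and Sparc (-0.70, adjusted p = 0.00135). The small proteoglycan Dcn was lower in Cyp26b1 knockout (-0.46, adjusted p = 0.00666) and higher in double knockout (0.61, adjusted p = 0.0102) against wild type, while Lum, a relative of it, was higher in both (0.70 and 1.04).

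Of 7 collagen receptors, 2 rose (Mrc2 by 1.31 and Itgb1 by 0.36) and 1 fell (Adgrg1, -0.72) in Cyp26b1 knockout. That is 42.9%, beside 51.2% of all features. Mrc2, which takes up collagen for breakdown, was at 0.15 in double knockout against wild type (adjusted p = 0.405), whereas Adgrg1, a receptor for type III collagen, was again lower (-0.75, adjusted p = 0.0031). Of 12 turnover genes, 3 rose and 7 fell in Cyp26b1 knockout, or 83.3%, beside 21.3% higher and 29.9% lower over all features. The metalloproteinase gene Mmp14 (-1.28, adjusted p = 0.000173) and the inhibitor genes Timp2 (-1.36, adjusted p = 0.00026) and Timp1 (-0.87, adjusted p = 0.000298) fell. The protease gene Fap was higher in both knockouts, by 1.54 and 1.85.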

How the data were processed

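RNA from 2 gonad samples per genotype was measured on 6 one-colour Agilent 44K arrays. The scanner files that the authors deposited hold linear spot intensities from Agilent Feature Extraction, version 9.5 in the submitters' processing notes and 9.5.3.1 per the file headers. That software had already subtracted background from the processed signal, per the file headers. A value table with 1 column per genotype, which the authors also deposited, behaved as a linear ratio; its log2 differences matched those of the arrays (r of 0.999989 and 0.9999) with offsets of 0.103 for Cyp26b1 knockout and -0.201 for double knockout against wild type, and its scaling between genotypes is not stated in the labels.

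Control spots and outlier spots were left out, spots of a probe were averaged, and 25 probes without a usable spot were dropped. Names came from accessions matched to the RefSeq gene table (GRCm38.p6): of 41174 probes, 23374 matched 1 symbol and 17800 none. Each array's log2 processed signals had their 75th percentile subtracted. Unnamed probes of one accession were read as 1 feature, by the brightest. All 6 arrays entered one limma 3.58.1 fit in R 4.3.3 (lmFit, eBayes with trend, 3 residual and 4.34 prior degrees of freedom), with two-sided p-values adjusted by Benjamini-Hochberg over 21554 features at a threshold of 0.05. The fit was tested on simulated data. Precision is limited by 2 arrays per genotype. The p-values rest on the spread between duplicates of all 3 genotypes, moderated by its trend over all features, and on no other source of spread. With 2 against 2, an exact permutation test cannot go below p = 0.333.

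No mean-signal column was used here, and the normexp alternative (offset 50) took the median signal and median background. Other alternatives were quantile and median scaling, the authors' scaling, no filter, a stricter filter, the mean of all probes, no trend, 4 arrays only, a replicate block, each array left out, and, chosen after seeing the data, cyclic loess and every probe as a feature. Members, classes and gene lists were chosen with earlier results of these data known. The rule for naming takes Col1a1, Col1a2, Col3a1, Col4a1, Col4a2 and up to 10 called members with the largest differences per comparison with their array values, other members by difference or count, and up to 3 members of each other list by adjusted p; array values of Col2a1, Col4a3, Col11a1, Col18a1 and Col25a1 were added after they were seen.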

Additional observations from a re-analysis of the deposited data

How the results depend on the processing

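Of the calls, 10 of 20 in Cyp26b1 knockout against wild type, 0 of 3 in double knockout against wild type and 4 of 16 in double knockout against Cyp26b1 knockout were kept under every setting tried. With the mean of all probes, Col16a1 in Cyp26b1 knockout against wild type reversed to -0.11; 2 genes were lower in double knockout against wild type and 5 higher between the knockouts; medians between the knockouts were -0.11 (all collagen genes), 0.0079 (fibrillar) and -0.11 (FACIT), and in Cyp26b1 knockout -0.036 (fibrillar) and 0.22 (type IV). For genes with 1 probe, among them Col9a3, Col4a5 and Col7a1, the mean of all probes had no further probe to add. The authors' scaling moved the constant between groups. It gave 6 lower collagen genes in double knockout against wild type and 1 higher with 15 lower between the knockouts; for other matrix genes it gave 3 higher, 12 lower and, between the knockouts, 10 higher. Its medians in Cyp26b1 knockout were 0.19 (all) and 0.21 (type IV). In double knockout against wild type they were -0.17 (all), -0.18 (fibrillar), -0.095 (type IV) and -0.0034 (FACIT), and between the knockouts -0.27, -0.010, -0.20 and -0.62. The median in place of the 75th percentile gave 5 higher collagen genes in double knockout against wild type, 3 lower between the knockouts, 13 higher and 2 lower matrix genes in double knockout, and medians of 0.16 and 0.15 (all) and 0.24 and 0.22 (type IV) in double knockout against wild type and Cyp26b1 knockout. Quantile normalization moved the medians between the knockouts to -0.039 (all), 0.10 (fibrillar) and -0.49 (FACIT). Cyclic loess, added after seeing the data, gave 0.16 (all) and -0.14 (fibrillar) in Cyp26b1 knockout, and -0.058 (all), 0.018 (fibrillar) and 0.21 (type IV) between the knockouts. Without a filter, 4 matrix genes were higher and 2 lower in double knockout, and the FACIT median in Cyp26b1 knockout was 0.52. Only the 4 arrays compared gave 5 lower collagen genes between the knockouts, and no trend gave 4, with 3 higher matrix genes in double knockout against wild type. Beyond the constants and the fewer arrays or genes in a fit, the cause was not tested.

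Leaving out 1 array gave, in Cyp26b1 knockout against wild type, 6 to 10 higher and 5 to 10 lower collagen genes and medians of -0.10 to 0.13 (all) and 0.53 to 0.98 (FACIT). In double knockout against wild type it gave 0 to 4 higher collagen genes, 2 to 9 higher and 1 to 5 lower matrix genes, and a type IV median of -0.043 to 0.17. Between the knockouts it gave 4 to 9 higher and 4 to 7 lower collagen genes, 12 to 20 lower matrix genes, and medians of -0.040 to 0.10 (all) and 0.058 to 0.53 (fibrillar). An arm left with 1 array was assumed to vary like the others.

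Same-numbered arrays of different genotypes deviated together only weakly (r of 0.119 to 0.226 over 2 pairs per comparison), so the numbers were taken as names. With the replicate block, collagen calls were 10 higher and 10 lower, 4 and 0, and 8 and 6 in the 3 comparisons, beside 10 and 10, 3 and 0, and 8 and 8 without it. The calls lost were those of Col4a2 (adjusted p = 0.0510) and Col9a1 (adjusted p = 0.0571) between the knockouts. A slide block could not be fitted, since each slide held 1 genotype. Without a filter, Col4a3, Col16a1 and Col18a1 in Cyp26b1 knockout were not called (adjusted p of 0.0778, 0.0558 and 0.0569). Dim genes such as Col4a3 and Col25a1 were measured close to background.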

Other observations

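Gaps between probes of one gene were also seen outside the collagen genes. Over all named genes with a further probe well above background on every array, 4957 probes of 4033 genes, the further probe gave a higher difference than the brightest in 68.2% of cases in Cyp26b1 knockout against wild type, with a median gap of 0.26 on the log2 scale. For the collagen genes this was 11 of 13 probes with a median gap of 0.45. In double knockout against wild type, which were scanned on one day, the share was 40.9% with a median gap of -0.05 over all genes, and 4 of 13 with -0.18 for the collagen genes. In double knockout against Cyp26b1 knockout it was 26.7% with a median gap of -0.33, and 1 of 13 with -0.56. The wide gaps thus stood in both comparisons that hold the Cyp26b1 knockout arrays, whose slide and scan day were their own. The part of slide, scan day or transcript variants in these gaps was not tested.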
